A study of Mus musculus with 4 samples.

Results

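The cytosolic ribosomal protein genes, which encode the protein subunits of the ribosome in the cytosol, were examined in a map of DNA bound by XBP1s in mouse natural killer (NK) cells. Members were the rows of the authors' peak table whose nearest gene was protein-coding, had a ribosomal protein name (Rpl or Rps with a number, Rplp0 to Rplp2, or Rpsa), and had its transcription start site (TSS) within 5000 bp of the peak centre. The S6 kinase genes, whose names begin with Rps6k, were left out. This gave 48 of 4890 peaks (0.982%), at 45 genes. The RefSeq table of GRCm38.p6 lists 84 coding genes with such names, so 53.6% of them had an assigned peak (exact 95% interval 42.4 to 64.5). Over all coding genes the same rule found a peak at 3483 of 21900, or 15.9%. The members were found by gene name and position only, so this share was not used to choose them, although the gene family was picked with earlier results of these data known.

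XBP1s binding was mapped by ChIP-seq, the sequencing of DNA that an antibody pulls down with its protein, in NK cells purified from the spleens of Il15TgXbp1f/f mice, which carry an Il15 transgene and a floxed Xbp1 gene. The labels give the strain as C57BL/6, and name no Cre, promoter of the transgene, age or sex. All libraries came from cells given IL-15, the cytokine that sustains NK cells, for 1 h at a concentration of 50 ng/ml, and no comparison with untreated cells was made. The 2 XBP1s immunoprecipitations and the 2 inputs, which were 2% of the sheared chromatin, are represented by 1 combined list of intervals with no value for any library. No replicate error can therefore be given for any interval, library depth is unknown, no test was made, and all intervals on shares cover counting error only. A list of bound DNA holds no expression values, so the labelled cell type could not be checked against its markers.

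XBP1s is the spliced, active form of XBP1, a basic leucine zipper (bZIP) factor of the unfolded protein response, which is known for switching on genes of the endoplasmic reticulum (ER). Ribosomal proteins are made in matched amounts from genes scattered over the genome, and each large or small subunit needs nearly all of its proteins to be assembled. Their mRNAs usually begin with a run of pyrimidines (the 5' terminal oligopyrimidine, or TOP, motif), through which the kinase mTOR controls their translation. Many of these genes also carry small nucleolar RNAs (snoRNAs), which guide the modification of ribosomal RNA, in their introns.

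The sequences on which the motif results turn are shown first. They come from the RefSeq promoter table of GRCm38.p6, which gives 300 bases per gene, 250 before the start site and 50 from it onward, and all are written 5' to 3' on the strand of the gene. Positions count from 0 at the first transcribed base, with negative numbers upstream. The sets of letters known for bZIP factors that were searched, on both strands, were the core ACGT, the XBP1 half-site CCACGT, the unfolded protein response element TGACGTGG and the cAMP response element (CRE) TGACGTCA. The first of these lies within each of the other sets. The CRE was found in 4 of the 35 members with a promoter in the table, here in capitals with 20 bases on each side:
Rpl13: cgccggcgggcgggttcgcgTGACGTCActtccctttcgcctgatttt
Rpl27a: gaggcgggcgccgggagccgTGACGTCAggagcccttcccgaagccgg
Rps9: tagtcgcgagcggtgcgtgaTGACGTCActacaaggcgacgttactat
Rpl18: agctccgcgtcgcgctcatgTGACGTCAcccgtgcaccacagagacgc
These stretches lie on the plus strand at chr8:123102306-123102353, chr7:109519078-109519125, chr7:3703964-3704011 and chr7:45717972-45718019. The capitals begin at position -24 in Rpl13, -97 in Rpl27a, -57 in Rps9 and -79 in Rpl18. In the first 3 genes the CRE lay inside the gene's own peak interval. In Rpl18 it lay outside, in an interval of 86 bp that the authors assigned to the neighbouring gene Sphk2.

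The XBP1 half-site was found in 1 member with a peak, Rpl13a, and in 4 ribosomal protein genes with no assigned peak. It is shown in capitals, as CCACGT or as its reverse complement, for Rpl13a and for the 3 other genes in which it lies within 120 bases of the start site:
Rpl13a: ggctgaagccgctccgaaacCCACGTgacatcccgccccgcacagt
Rpl19: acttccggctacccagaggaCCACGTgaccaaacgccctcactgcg
Rpl23: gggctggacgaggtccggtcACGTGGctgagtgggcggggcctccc
Rps25: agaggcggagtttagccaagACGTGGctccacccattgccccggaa
The stretches are at chr7:45128921-45128966 on the minus strand, chr11:98026670-98026715 on the plus strand, chr11:97782416-97782461 on the minus strand and chr9:44407601-44407646 on the plus strand. The half-site begins at position -201 in Rpl13a, inside its interval. It begins at -20 in Rpl19 and at -2 in Rpl23, which have no peak in the list within 1000 bp of their start. In Rps25 it begins at -93, inside an interval assigned to Trappc4. The fourth gene with no assigned peak is Rpl12, with the half-site at -244.

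The members with intervals of 1000 bp or more and a promoter in the table held none of these bZIP letters from -120 to 29. Those bases are shown because the intervals are among the widest; capitals mark ACGT, the ETS letters CCGGAAG, the GC box GGGCGG and the NF-Y letters CCAAT:
Rpl10: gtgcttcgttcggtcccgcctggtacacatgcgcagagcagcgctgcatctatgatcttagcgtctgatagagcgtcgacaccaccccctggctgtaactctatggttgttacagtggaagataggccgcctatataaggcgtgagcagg
Rpl37: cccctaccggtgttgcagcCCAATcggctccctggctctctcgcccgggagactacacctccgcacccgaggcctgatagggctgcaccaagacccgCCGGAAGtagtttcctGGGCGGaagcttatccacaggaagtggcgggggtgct
Rpl4: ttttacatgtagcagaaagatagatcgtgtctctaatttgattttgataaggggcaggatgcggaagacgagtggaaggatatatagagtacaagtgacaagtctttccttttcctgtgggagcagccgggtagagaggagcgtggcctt
They are on the plus strand at chrX:74270696-74270845, chr15:5116493-5116642 and chr9:64173267-64173416. All 150 bases of each lay inside the gene's peak interval. In these 150 bases only Rpl37 holds any of the letters in capitals. Farther upstream, and still inside the interval, Rpl4 has an ACGT beginning at -150, and Rpl10 a GC box at -226 and CCAAT at -222 and -132.

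Positions of peaks below are those of the authors' table on mm10, and the width of an interval is its end minus its start plus 1. The widest interval was at Rpl10, which encodes a large subunit protein that joins late in assembly (1995 bp, chrX:74269634-74271628). It reached from -1182 to 812 bp of the TSS, and only 0.634% of all peaks were wider. Rpl37, a large subunit gene, had 1177 bp at chr15:5116114-5117290. Rpl4, whose protein forms part of the narrowest point of the exit tunnel for the growing chain, had 1009 bp at chr9:64172772-64173780. Each of these intervals covered the TSS.

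Among other wide intervals, Rplp0, which encodes the base of the stalk that recruits elongation factors, had 897 bp at chr5:115559229-115560125, centred in intron 1 of 6. Rplp2, another stalk protein gene, had 599 bp at chr7:141447232-141447830. The interval of Rpl30 was 689 bp wide (chr15:34443267-34443955) and that of Rpl13a, whose protein also acts off the ribosome in translational silencing, 684 bp (chr7:45128646-45129329). Both were centred upstream, at -335 and -242 bp. Rpl41, which encodes the shortest ribosomal protein, had 655 bp at chr10:128548751-128549405. Rps7 of the small subunit had 620 bp at chr12:28635667-28636286. Rps23, whose protein contacts the decoding centre, had 616 bp at chr13:90922949-90923564, in intron 1 of 3. The intervals of the 12 members with the widest peaks all covered the TSS.

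At the other end, Rpl38, known from the tail-short mouse mutant, had the narrowest interval as its widest, 142 bp at chr11:114668990-114669131, in intron 3 of 4. It lay wholly downstream, from 410 to 551 bp. Rpl18 had 165 bp at chr7:45718267-45718431, starting 196 bp downstream, and Rpl7a had 181 bp at chr2:26910829-26911009, starting 22 bp downstream. Rps19, the gene most often mutated in Diamond-Blackfan anaemia, an inherited failure of red cell production, had 2 narrow intervals. They were 204 bp wide (chr7:24884146-24884349) and 73 bp wide (chr7:24884709-24884781), with 359 bp between them. The authors' distances, -345 and 69 bp, refer to different start sites, at positions 24884592 and 24884676, and both sites lie in that gap.

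Rpl21 and Rpl7l1 also had more than 1 peak. Rpl21, of the large subunit, had 525 bp over the TSS (chr5:146832786-146833310) and 435 bp centred at -3074 bp (chr5:146829599-146830033), annotated as intergenic. The latter is the only member interval centred more than 1000 bp from the TSS. Rpl7l1, a paralogue named as like Rpl7, had 359 bp just downstream of its TSS (chr17:46782286-46782644) and 262 bp upstream (chr17:46782886-46783147), 241 bp apart. Beyond the 5000 bp window, Rplp0 had a further interval of 269 bp at -24455 bp. Rplp1, a stalk gene with no peak at its start, was named as nearest gene of 4 intergenic intervals of 68 to 329 bp, the closest of them 206387 bp away.

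**Figure D1:**
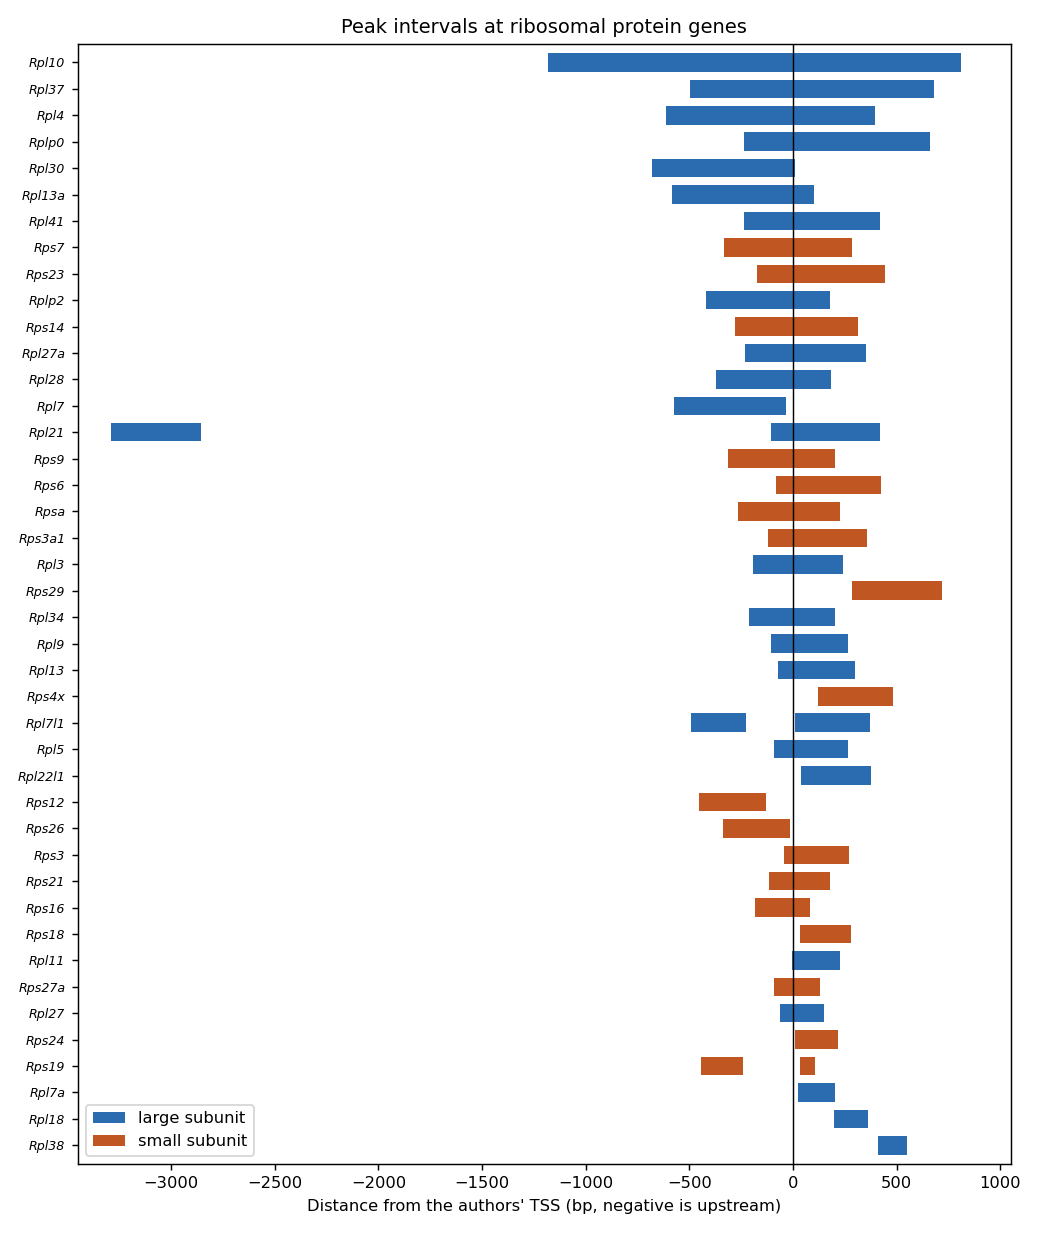
Extent of 45 of the 48 intervals, at 42 genes, relative to the TSS that the authors used for that interval (x axis, bp, negative upstream), 1 row per gene (y axis) in order of the widest interval, with bars in blue for large and orange for small subunit genes and a vertical line at the TSS. Most bars cross the line; Rps29, Rps4x, Rpl18 and Rpl38 lie downstream of it, Rps12, Rps26 and Rpl7 upstream, and the second bar of Rpl21 stands alone at -3074 bp.

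The rule had already limited members to peaks within 5000 bp of the TSS. Their centres had a median of 55.5 bp past the TSS, with quartiles at -85.75 and 120, against 49 bp (quartiles -96 and 176) over all coding genes with a peak. Of the 48 intervals, 47 (97.9%) were centred within 1000 bp, against 91.5% of the peaks of all coding genes in the window, and 46 within 500 bp. The interval covered the TSS in 32 (66.7%), lay wholly downstream in 10 and wholly upstream in 6. The median interval edges were at -203 and 266.5 bp. The centre was downstream in 62.5% of the member peaks and in 60.0% of the 3805 peaks of coding genes in the window. The authors' annotation put 34 of the 48 (70.8%) in a promoter, against 64.2% of those 3805, and 9 (18.8%) in an intron, against 17.3%. Of the 9, 8 were in intron 1. In position, then, the member peaks were close to the peaks of other coding genes.

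Of the members away from the TSS, Rps29, which encodes a small subunit protein, had its 431 bp interval from 287 to 717 bp, centred in exon 2 of 3. Rps4x, the X-linked small subunit gene, had 365 bp from 119 to 483 bp. Rps12 and Rps26 had intervals of 325 and 321 bp that ended upstream of the TSS, at -131 and -16 bp. The 542 bp interval of Rpl7 ended at -34 bp. For 47 of the 48 peaks, the start site that the authors had used was at most 10 bp from the RefSeq start or gene end. For Rps18 it was 24 bp away.

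Widths of the members were close to those of other genes with a peak. Taking the widest interval of each gene, the median was 437 bp (interquartile range 310 to 599, n = 45), against 411 bp (281 to 625) over the 3483 coding genes with a peak. Of the 45 genes, 25 were wider than that median gene. An interval of at least 500 bp was present at 20 members (44.4%) and at 38.0% of all coding genes with a peak, and one of at least 1000 bp at 4 members (8.89%) against 8.13%. The widest 10% of those genes, at 937 bp or more, included 5 members (11.1%). Together the 48 intervals covered 23909 bp, or 1.04% of the length of all peaks. Width is not a measure of signal, and the score that the authors deposited is 0 for every peak, so the strength of binding cannot be ranked.

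**Figure D2:**
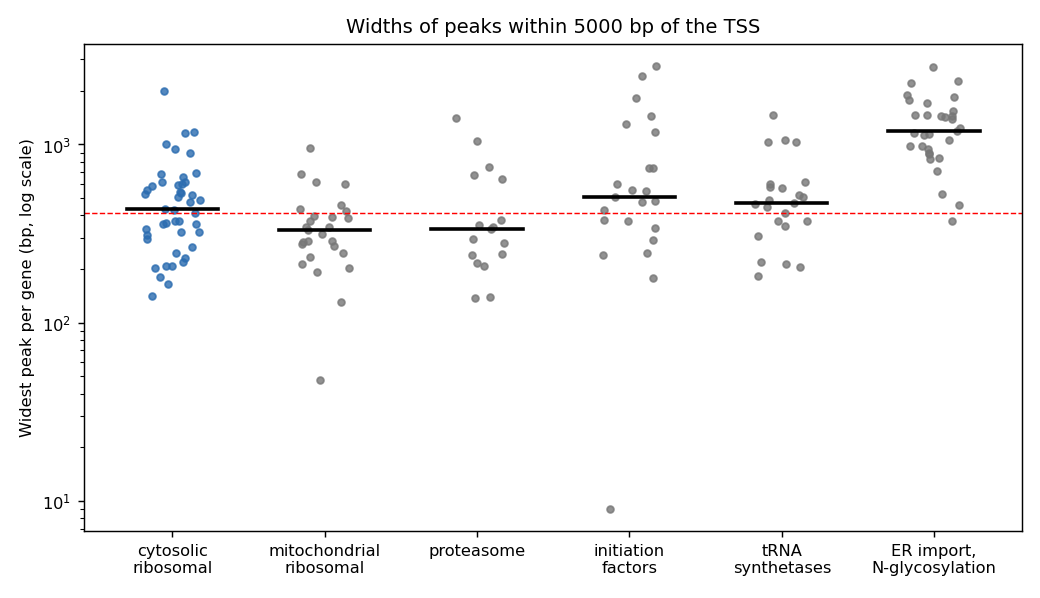
Width of the widest peak per gene within 5000 bp of the TSS (y axis, bp, log scale) for the genes with a peak in each of 6 groups (x axis); points are genes, spread sideways for legibility, black bars are medians and the dashed line is the median over all coding genes with a peak, 411 bp. The ribosomal protein genes spread around that line (median 437 bp), while the genes of ER import and N-glycosylation lie mostly above it (median 1186 bp).

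By subunit, 25 of 52 large subunit genes (48.1%, interval 34.0 to 62.4) and 20 of 32 small subunit genes (62.5%, 43.7 to 78.9) had an assigned peak. These intervals overlap. The median widths were 525 bp for the large and 398 bp for the small subunit. Both 5S RNP genes had a peak: Rpl5 (356 bp) and Rpl11 (232 bp) encode the proteins that carry 5S ribosomal RNA and, when free, bind the p53 inhibitor MDM2. Of the 4 stalk genes, Rplp0 and Rplp2 had a peak, and Rplp1 and Rpl12 did not. Of 9 genes for proteins of the exit tunnel and its mouth, where nascent chains leave, only Rpl4 had an assigned peak. The interval on this share of 11.1% (0.281 to 48.2) includes the 15.9% of all coding genes. Rpl17, Rpl19, Rpl22, Rpl31, Rpl35 and Rpl39 of that set had none within 1000 bp under any gene name, and Rpl23a and Rpl26 had one under another name. With peaks under another name counted, 3 of the 9 had one (33.3%), against 18.8% of all coding genes. Without the 9, the share with an assigned peak was 44 of 75 (58.7%).

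Of 16 ribosomal protein genes named in Diamond-Blackfan anaemia, 8 had an assigned peak (50.0%, 24.7 to 75.3), with a median width of 276.5 bp. Among these 8, the widest was that of Rps7, and the narrowest that of Rps19. The 16 are a chosen list, which does not include Rpl18, whose interval was narrower (165 bp). Of 7 genes named as like another ribosomal protein gene, which include copies with tissue-restricted expression, Rpl22l1 (337 bp) and Rpl7l1 (359 bp) had a peak. The other 5 were Rpl10l, Rpl32l, Rpl39l, Rpl3l and Rps27l. Of 30 members of the family with a snoRNA gene inside their span, 19 had a peak (63.3%, 43.9 to 80.1) with a median width of 525 bp. Of 54 with none, 26 had a peak (48.1%, 34.3 to 62.2) with a median of 369.5 bp. The intervals on the 2 shares overlap.

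Members were found on most chromosomes. On chromosome 7, which holds 14 of the 84 genes, 11 had a peak (78.6%, 49.2 to 95.3). On chromosome 17, 2 of 8 had one (25.0%, 3.19 to 65.1), on chromosome 9, 2 of 7, and on chromosome 16, 0 of 3 (upper limit of the exact interval 70.8%). On the X chromosome Rpl10 and Rps4x had a peak, and Rpl36a and Rpl39 did not. The share over all coding genes, 15.9%, was not computed for single chromosomes. With so few genes on each, these counts are descriptions only.

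The assignment to the nearest gene left some start sites under other names. Of the 39 genes with no assigned peak, 8 (20.5%) had a peak of another gene within 1000 bp of the RefSeq start site or, where none was listed, gene end. In 5 of the 8 the interval covered that point. Over all 21900 coding genes, 3483 had an assigned peak, and 4128 had an assigned peak or one of another gene by this rule. At Rps25, a small subunit gene, the interval was named for Trappc4 and was 834 bp wide (chr9:44407052-44407885). The interval at Rps2 was named for the non-coding Snhg9 (398 bp, chr17:24719717-24720114) and that at Rps28 for Ndufa7 (348 bp, chr17:33824475-33824822). At Rps27 it was named for Rps27rt (305 bp, chr3:90213436-90213740), and at Rpl26 for Gm15772 (245 bp, chr11:68901528-68901772). RefSeq places Rps27rt on chromosome 9 and Gm15772 on chromosome 5, away from these intervals.

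At the remaining 3 genes the interval did not reach the point. Rpl15, of the large subunit, had one of 355 bp named for Nkiras1, 28 bp from its start. Rpl23a had one of 330 bp named for the snoRNA gene Snord42b, 79 bp from the end of the gene with the higher coordinate. Rpl36 had one of 270 bp named for Micos13, 339 bp from the end of the gene with the lower coordinate. Counting these, 53 of 84 genes (63.1%) had an assigned peak or one near the RefSeq start or gene end, against 18.8% of all coding genes by the same rule. They were 29 of 52 in the large and 24 of 32 in the small subunit. They included 12 of the 16 anaemia genes and 3 of the 9 tunnel genes. By a uniform rule, any peak centred within 1000 bp of either end of the gene, 50 of 84 (59.5%) had one, against 17.0% of all coding genes.

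Neither kind of peak was listed for 31 genes. They include Rpl6, Rpl8, Rpl10a, Rpl14, Rpl24, Rpl32 and Rpl37a of the large subunit and Rps10, Rps13, Rps15, Rps15a and Rps20 of the small. Absence from a combined list does not show that a site was unbound, since the sources used here do not state the threshold of the calls. Among ribosomal genes outside the name pattern, Rack1, a scaffold on the small subunit, had an interval of 1248 bp at chr11:48799494-48800741. Fau, which encodes a ubiquitin-like protein fused to Rps30, had 351 bp at chr19:6057812-6058162.

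At some members a second protein-coding gene begins or ends in the same interval, so that the peak cannot be given to the ribosomal gene alone. Ends of non-coding genes were not counted. This was so at 5 of 45 members (11.1%), against 350 of the 3438 other coding genes with a peak (10.2%). The 5 were Rpl37 (with Card6), Rpl4 (Zwilch), Rplp2 (Pidd1), Rpl9 (Lias) and Rps27a (Clhc1), with a median width of 599 bp (219 to 1177). The other 40 had a median of 434 bp (142 to 1995). For the other coding genes the medians were 593 and 398 bp. In addition, Rpl18 and Rps18 each had a peak of a neighbour, Sphk2 and Vps52, within 1000 bp of the TSS.

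**Figure D3:**
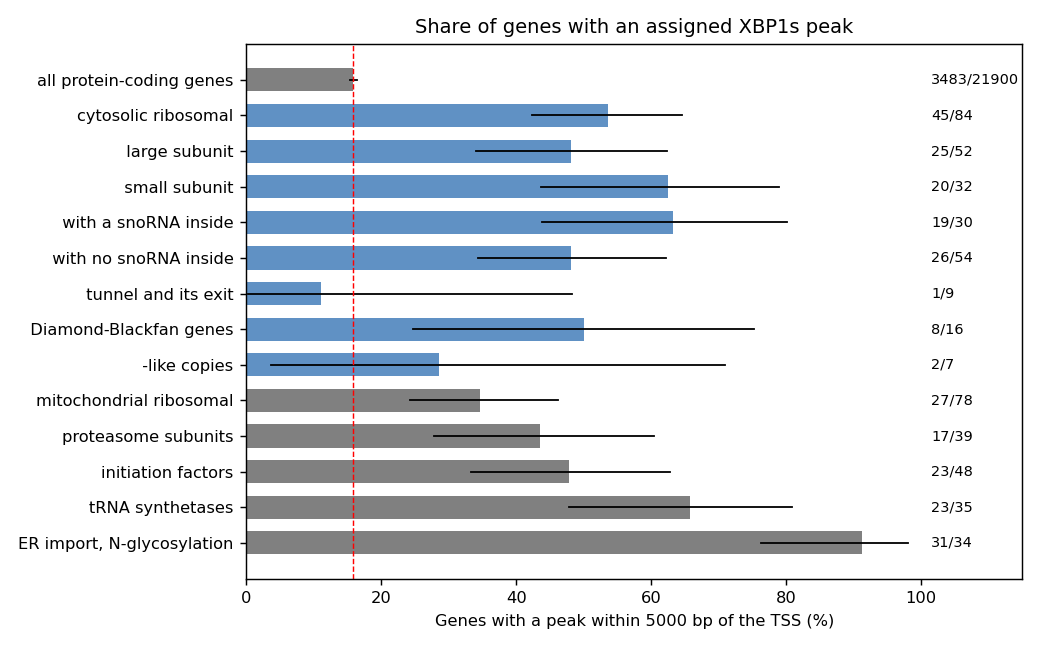
Share of genes with an assigned peak within 5000 bp of the TSS (x axis, %) for all coding genes, for the ribosomal protein genes and groups of them (blue) and for comparison groups (grey), with exact 95% intervals as lines and genes with a peak over all genes at the right. The dashed line is the share over all coding genes, 15.9%; the ribosomal share is 53.6%, the tunnel group lies at 11.1% and the ER group at 91.2%.

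Other gene groups of protein synthesis, breakdown and ER import, taken by name pattern, are given as a scale. Of 78 mitochondrial ribosomal protein genes 27 had a peak (34.6%, interval 24.2 to 46.2), below the 53.6% of the cytosolic genes, though the intervals overlap. The share was 43.6% for 39 proteasome subunit genes, 47.9% for 48 translation initiation factor genes and 65.7% for 35 aminoacyl-tRNA synthetase genes. For 6 translation elongation factor genes it was 66.7%. Of 34 genes of ER import and N-glycosylation, which serve the pathway that XBP1s is known for, 31 had one (91.2%, 76.3 to 98.1). This ER list was added after the peak table had been seen, so its share is a description only. Of these 31, 23 (74.2%) were in the widest 10% of genes with a peak, where 5 of the 45 ribosomal protein genes were. No test of these differences was made.

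The promoters of 64 of the 84 genes were in the RefSeq table: 35 of the 45 with an assigned peak and 29 of the 39 without one; below, "with" and "without" refer to assigned peaks unless another name is mentioned. Those of 17492 coding genes served as the background, of which 2899 had a peak. In 30 of the 35, some of the 300 bases lay in the member interval (median 167 over the 35), and in 9 all did. The RefSeq start site can differ from the one the authors used. Median GC content was 56.7% in members with a peak, 57.0% in those without, 61.3% in all coding genes with a peak and 56.3% in all. The ratio of observed to expected CpG had medians of 0.931, 0.791, 0.833 and 0.576 in the same order. The members with a peak thus had a GC content near that of all genes, and the highest CpG ratio of the 4 sets.

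The ACGT core was in 17 of 35 members with a peak (48.6%), in 19 of 29 without an assigned one (65.5%), in 51.1% of all coding genes with a peak and in 33.0% of all. Of 27 occurrences in the 17 members, 20 lay inside the member interval. The half-site CCACGT, present at Rpl13a as shown, was in 1 of 35 (2.86%), 4 of 29 (13.8%), 16.9% and 9.12%. It was in 6 of 24 ER genes with a peak and a promoter in the table (25.0%). The element TGACGTGG was in 0 of 35 and 0 of 29, and in 1.72% of all coding genes with a peak. The ER stress response element, searched by its usual CCAAT and CCACG parts with their spacing, was in 0 of 35 and 0 of 29, and in 0.379%. The CRE was in 4 of 35 (11.4%), in 1 of 29 (3.45%, Rpl26), in 5.04% of coding genes with a peak and in 2.34% of all. With so few matches these shares are descriptions only.

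Letters known from ribosomal and housekeeping promoters were compared in the same windows. CCGGAAG, the core bound by ETS factors, was in 13 of 35 members with a peak (37.1%), 12 of 29 without (41.4%), 25.4% of coding genes with a peak and 11.9% of all. In 10 of the 13 genes at least 1 match lay in the member interval. The GC box GGGCGG was in 65.7%, 51.7%, 68.1% and 46.3%, and CCAAT in 34.3%, 24.1%, 40.8% and 39.0%. The E-box CACGTG, which overlaps the half-site in Rpl13a, was in 5.71%, 10.3%, 12.9% and 7.90%. GATGGCG, from YY1 sites, was in 8.57%, 6.90%, 8.31% and 4.46%. The CGCG palindrome was in 2 of 35 (Rps6 and Rps19), 3 of 29, 1.79% and 0.715%. The NRF1 site was in 8.57%, 6.90%, 13.4% and 6.60%, and TATAAA in 5.71%, 17.2%, 6.00% and 13.3%. Of the 29 promoters without an assigned peak, 6 have a peak under another gene's name, which leaves 23 with none and 41 with one under any name. The ETS letters were in 17 of those 41 (41.5%) and in 8 of the 23 (34.8%), and ACGT in 22 (53.7%) and 14 (60.9%). The half-site was in 2 (4.88%) and 3 (13.0%), and the CRE in 5 (12.2%) and 0. Of these 5, the CRE of Rpl26 begins at -134 and lies outside every peak interval.

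**Figure D4:**
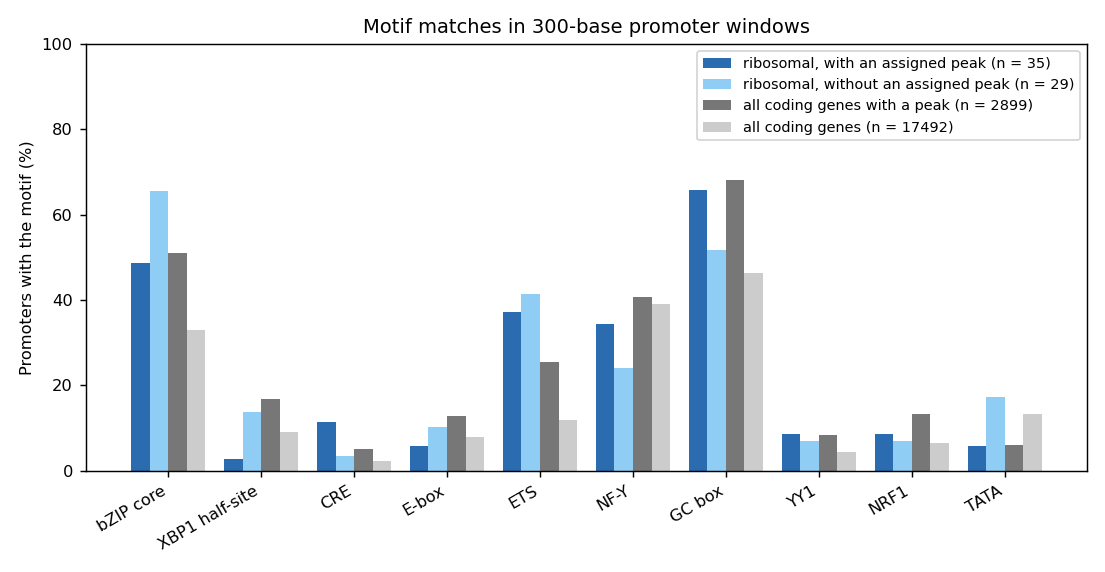
Share of 300-base promoter windows (y axis, %) that hold each motif on either strand (x axis), for ribosomal protein genes with and without an assigned peak (blue) and for all coding genes with a peak and all coding genes (grey). The XBP1 half-site is in 2.86% (1 of 35) of ribosomal promoters with a peak, 13.8% of those without and 16.9% of all coding genes with a peak. The ETS letters are in 37.1%, 41.4% and 25.4% in the same order.

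The pyrimidine run at the start site, the DNA counterpart of the TOP motif, was measured as the longest run of C and T that began within 10 bases of the start. A run that began farther upstream was not counted, even where it crossed the start. At Rpl7a, for example, such a run was passed over and the run counted was 1 base. The shares below can therefore miss genes with a pyrimidine run over the start. Examples are shown with the run in capitals, in bases -15 to 19, for 3 members with a peak and for Rpl15, whose nearby peak is named for Nkiras1:
Rpl27a: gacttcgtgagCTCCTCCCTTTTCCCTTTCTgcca
Rpl28: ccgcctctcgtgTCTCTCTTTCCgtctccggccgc
Rps6: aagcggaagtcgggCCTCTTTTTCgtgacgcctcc
Rpl15: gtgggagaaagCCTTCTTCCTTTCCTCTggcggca
They are at chr7:109519180-109519214 and chr7:4792950-4792984 on the plus strand, and chr4:86857348-86857382 and chr14:18270967-18271001 on the minus strand. The runs are 20, 11, 10 and 17 bases long. Rps6 encodes the small subunit protein that S6 kinase phosphorylates. A run of at least 6 bases was present in 16 of 35 members with a peak (45.7%) and 14 of 29 without an assigned one (48.3%), against 22.4% of all coding genes with a peak and 22.7% of all. Among the 23 genes with no peak under any name, 11 had such a run (47.8%), and among the 41 with a peak under their own or another name 19 did (46.3%).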

How the data were processed

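Chromatin from mouse splenic NK cells was precipitated with an antibody against XBP1s, with input as control (2 libraries each). Reads were paired, of 100 bp. Per the submitters' processing notes, the tools were Bowtie2 (version 2.4.5), MACS2 (2.2.7.1), HOMER (4.11 and 4.11.1), FastQC (0.11.9) and Trim Galore (0.6.7), and the builds mm10 and GRCm38. The peak table the authors deposited is, per the file header, HOMER's annotation of 1 combined set of intervals. The sources used here do not state how the libraries were combined or with which threshold. The score in the authors' table is 0 for all 4890 peaks. The signed distance to the TSS, in bp, is also as the authors deposited it. The protocol also names T-bet and isotype control antibodies, which were not analysed here.

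Genes were matched by Entrez number to RefSeq (GRCm38.p6), and all 45 members matched. Widths, counts, medians and exact Clopper-Pearson 95% intervals were computed with Python 3.11.15, pandas 2.3.3, NumPy 2.4.6 and SciPy 1.17.1, and figures were drawn with matplotlib 3.10.9. The counting was tested on simulated data. RefSeq promoters (the first listed per gene) were searched for 13 motifs. Promoters of Rpl17, Rpl21, Rpl23a, Rpl29, Rpl3, Rpl30, Rpl32, Rpl36, Rpl7, Rpl8, Rplp1, Rps14, Rps20, Rps27a, Rps29 and others were not used here. The members and lists were chosen with earlier results of these data known, and the ER list and the neighbour measures were added after the table had been seen. Full values are given for the 12 members with the widest peaks, the 4 with the narrowest, those with more than 1 peak or a peak far from the TSS, peaks beyond the window, genes with a nearby peak under another name, and Fau and Rack1. A few of these genes are included in the counts, but their own values are not reported here. Other members named with values were chosen after those were seen.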

Additional observations from a re-analysis of the deposited data

How the results depend on the processing

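Of 34 values recomputed under other settings, 32 stayed within 1.5 times the main count or within the spread of the main value. The number of ribosomal protein genes with a peak was 45 of 84 within 1000 bp of the TSS, against 15.1% of all coding genes. It was 44 within 500 bp (all coding genes 14.3%), 46 at any distance (17.7%) and 42 with intervals of at least 200 bp (14.8%). Any peak within 1000 bp of a gene end gave 50 (17.0%). A curated list of 80 proteins gave 45 of 80, against 15.9%. Counting peaks under another name, a rule added after seeing the data, gave 53 of 84, against 18.8%. With only the widest 50% of all peaks the number was 26, by construction from fewer peaks, against 9.02% of all coding genes. The median width ranged from 433 to 483.5 bp and the median distance from 37 to 61 bp. The half-site count went from 1 to 0 when the window began 100 bases before the start site, since the Rpl13a match lies farther upstream.

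No paired analysis was possible because the table has no column for any library; leaving out each replicate could not be run for the same reason. Depth, signal strength and agreement between replicates cannot be given.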
